A study of Mus musculus with 24 samples.

Results

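Small nucleolar RNAs (snoRNAs) and the genes that carry them were followed across 24 microarrays of mouse blastocysts. The members are the probes whose gene name on the array starts with Snora, Snord, Scarna or Snhg, or is Gas5. This gave 39 of 56605 probes that are not controls, under 29 of 37005 gene names. Of these, 13 probes were for snoRNAs and small Cajal body RNAs, 1 probe each, and 26 probes were for 16 host genes. RNA came from pools of frozen expanded blastocysts in 6 conditions known by the codes HC1 to HC6, with 4 pools each. A pool held 20 embryos in HC6, against 15 in HC1, HC2, HC3, HC4 and HC5, so pool size and the HC6 code cannot be told apart. The title of the study mentions bisphenol A, a monomer of plastics, and activation of a membrane estrogen receptor. The sources used here do not give the meaning of the codes, the control, or the strain and age of the embryos. The question asked here is which of these RNAs gave signal and whether snoRNA and host signals moved together.

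A snoRNA is a short RNA of the nucleolus that guides chemical modification or cleavage of ribosomal RNA. Box H/ACA snoRNAs (Snora) guide pseudouridylation, box C/D snoRNAs (Snord) guide ribose methylation, and the related small Cajal body RNAs (Scarna) act on spliceosomal RNAs. In mammals most of them lie in introns and are cut out of the host transcript after splicing. Some hosts encode proteins, often of the translation machinery. Others, among them Gas5 and many Snhg genes, are long non-coding RNAs whose spliced transcripts are often short-lived, and several start with a run of pyrimidines typical of ribosomal protein genes. Mature snoRNAs carry no poly(A) tail, and the amplification kit named in the labels primes on poly(A) tails. Whether a snoRNA probe read the mature RNA, a longer precursor or unspliced host RNA was not tested.

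The arrays carried the RNA of blastocysts by their markers. All 6 listed markers of the inner cell mass and epiblast, all 7 of the trophectoderm and all 6 of the primitive endoderm were well above background on all 24 arrays. Of the fibroblast and stroma markers, 0 of 5 passed the filter on dim probes. Of the cumulus and granulosa cell markers 2 of 7 passed it, and of the blood markers 2 of the 4 on the array. Both of these cumulus and granulosa markers, and 1 of the blood markers, were well above background on all 24 arrays. Their highest means were 5.14 and 3.90 on a log2 scale where 0 is the array's 75th percentile. The source of this signal was not tested. An array had at least 38.6% and at most 49.7% of its spots well above background, and the 75th percentile of the signal over probes ran between 47.3 in HC5 replicate 4 and 128 in HC3 replicate 3. No spot was saturated (0 spots). The pools were not stated to come from separate animals, so p-values measure only the spread between pools, and the number of arrays limits the precision.

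The probes were 60 bases long, and the snoRNA genes they report ran between 82 and 275 bases in the reference table. The sequences below show what the snoRNA signal rests on. They were picked by hand from the snoRNA probes compared with a host, and the other compared probes are not shown. Coordinates are those of the array file, on mouse build mm9. Capitals mark CTGA, the D box sequence, in box C/D probes, and an ACA that stands 3 bases before the probe's end in the others, as it does at the end of box H/ACA snoRNAs.
Snora73a, chr4:131908690-131908749, minus strand: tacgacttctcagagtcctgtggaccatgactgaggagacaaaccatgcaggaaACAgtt
Scarna13, chr12:106269285-106269344, minus strand: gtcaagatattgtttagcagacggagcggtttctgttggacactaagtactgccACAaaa
Snora78, chr17:24856697-24856756, minus strand: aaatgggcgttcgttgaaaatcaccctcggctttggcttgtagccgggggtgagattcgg
Snora34, chr15:98350149-98350208, minus strand: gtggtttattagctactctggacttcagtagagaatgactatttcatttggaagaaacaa
Snord17, chr2:144091718-144091777, minus strand: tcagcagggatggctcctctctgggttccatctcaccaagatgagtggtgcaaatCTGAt
Snord33, chr7:52382243-52382302, minus strand: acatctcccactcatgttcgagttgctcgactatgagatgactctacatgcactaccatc

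The ACA motif with 3 bases after it (ACANNN, searched at the last 6 bases of a probe) was found in 2 of 13 snoRNA probes, Snora73a and Scarna13, against 2.03% of all probes. On the reverse complement it was found in 1 of 13, against 2.45% of all probes. CTGA was found in 5 of 13 snoRNA probes, against 29.1% of all probes, and on the reverse complement in 3 of 13, against 26.5%. TGATGA, the C box sequence, was found in 0 of 13 on either strand, against 2.60% and 2.26% of all probes. A 60-base window covers only part of most of these RNAs, and a match is a description of the probe.

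The probe of Snhg9 is shown because it lies on the same strand as the probe of its snoRNA, 162 bases from Snora78. The Gas5 probe is shown because its ends lie 507 bases apart on the genome, so that it spans an intron and matches spliced RNA.
Snhg9, chr17:24856476-24856535, minus strand: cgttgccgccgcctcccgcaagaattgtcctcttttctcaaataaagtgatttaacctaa
Gas5, chr1:162967641-162968147, plus strand: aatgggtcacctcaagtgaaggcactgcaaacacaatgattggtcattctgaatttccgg

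Of the 13 snoRNA probes, 7 were well above background on all 24 arrays, which is 53.8%, against 31.9% of all probes. Levels are given as log2 of the processed signal minus the 75th percentile of the array, so that 0 is that percentile. A level depends on the probe as well as on the RNA, and levels of different probes are not compared. Snora73a, which is needed for cleavage of the ribosomal RNA precursor and has a near-identical copy in the same host, had levels with a lowest value of 4.56 in HC6 replicate 2, a median of 5.39 and a highest value of 5.92 in HC3 replicate 4. Snord17, a box C/D snoRNA, had 0.52 at its lowest in HC5 replicate 4, a median of 1.67 and 2.24 at its highest in HC3 replicate 4. These levels spanned 2.57-fold for Snora73a and 3.31-fold for Snord17.

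The other 5 snoRNA probes that were well above background on every array sat near or below the 75th percentile. Snora23 ran between -0.94 and 0.39, with a median of -0.40. Snora81 ran between -1.11 and 0.44, with a median of -0.30. Snora74a ran between -1.07 and 0.24, with a median of -0.41. Each of these is a box H/ACA snoRNA. Snora78, also of that class, ran between -1.79 and 0.17, with a median of -0.94. Snord33, a box C/D snoRNA, ran between -1.17 and -0.13, with a median of -0.52.

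A further 5 snoRNA probes passed on some arrays. Scarna13, Snora34 and Snora52 were each well above background on 22 arrays, Snord7 on 21 and Snora47 on 15. Snora47 was well above background on 0 of 4 arrays in HC6, against 15 of the other 20. Snora34 ran between -3.21 in HC5 replicate 4 and 0.50 in HC3 replicate 1. HC5 and HC6 each had 1 array on which it was not well above background, so no fold is given for that range. Scarna6 was well above background on 1 array and was not tested. The 12 tested snoRNA probes had a median SD of 0.38 over the 24 arrays, against 0.26 for all probes well above background on at least 12 arrays.

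Of the 26 host probes, 17 were well above background on all arrays, and 15 of the 16 host genes had such a probe. Gas5, which carries box C/D snoRNAs and is named for its rise in growth-arrested cells, had 2 probes. The intron-spanning probe ran between 5.76 and 6.56 and the other between 5.61 and 6.72, with medians of 6.30 and 6.46. Both were lowest in HC5 replicate 4 and highest in HC2 replicate 4, and across the 24 arrays their r was 0.94.

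Several hosts carry known sets of guides. Snhg1, a host of box C/D snoRNAs, ran between 1.60 in HC5 replicate 4 and 2.80 in HC4 replicate 3, with a median of 2.42. Snhg3, the host of Snora73a, ran between 3.65 and 4.47 with a median of 4.27, and its lowest array was also HC5 replicate 4. Snhg5, a host of box C/D snoRNAs, ran between 3.01 and 3.78 with a median of 3.49. The lowest array of Snhg5 was HC5 replicate 3, so each of these hosts was lowest in an HC5 pool. Snhg6 ran between 3.53 and 4.35 with a median of 4.13, Snhg8 between 3.64 and 4.45 with a median of 4.19, and Snhg12 between 1.44 and 2.82 with a median of 2.32. Snhg12 was lowest in HC1 replicate 2.

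The host of Snora78, Snhg9, ran between 4.65 and 5.47 with a median of 5.03, and both its lowest and its highest array were HC6 pools. Snhg4, the host of Snora74a, ran between -1.58 and -0.65, with a median of -1.04. Snhg10, the host of Scarna13, ran between -0.021 and 0.67, with a median of 0.29. These hosts spanned little over the 24 arrays, 1.76-fold for Snhg9, 1.91-fold for Snhg4 and 1.61-fold for Snhg10.

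Snhg14, the long transcript of the imprinted Snrpn to Ube3a region, ran between -0.13 and 1.37 with a median of 0.83 at a probe above background on every array, while its second probe passed on 1 array. Snhg7 had a probe with a 1.74-fold range around a mean of 4.60 and another between -1.01 and 0.48 with a median of -0.24. Snhg7os, on the strand opposite Snhg7, ran between 0.71 and 2.50 with a median of 1.33. It is a member by its name. Snhg20 ran between 2.62 and 3.71 at its intron-spanning probe, and Snhg11 between -0.50 and 1.16. Snhg18 was well above background on 19 arrays and ran between -3.52 in HC5 replicate 4 and 3.46 in HC2 replicate 3. Only 2 of the 4 HC5 arrays were well above background, and without HC2 replicate 3 its highest level was 0.24.

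Different probes of a host often disagreed. Of the 9 host genes with more than 1 probe, Gas5 and Snhg7 had every probe well above background on all 24 arrays. In Snhg5, Snhg8, Snhg9, Snhg11, Snhg12, Snhg14 and Snhg20 only 1 probe was, and the other probes passed on between 0 and 8 arrays. The second probe of Snhg9 passed on 0 arrays. Comparisons with snoRNAs therefore use the brightest tested probe of a host.

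**Figure D1:**
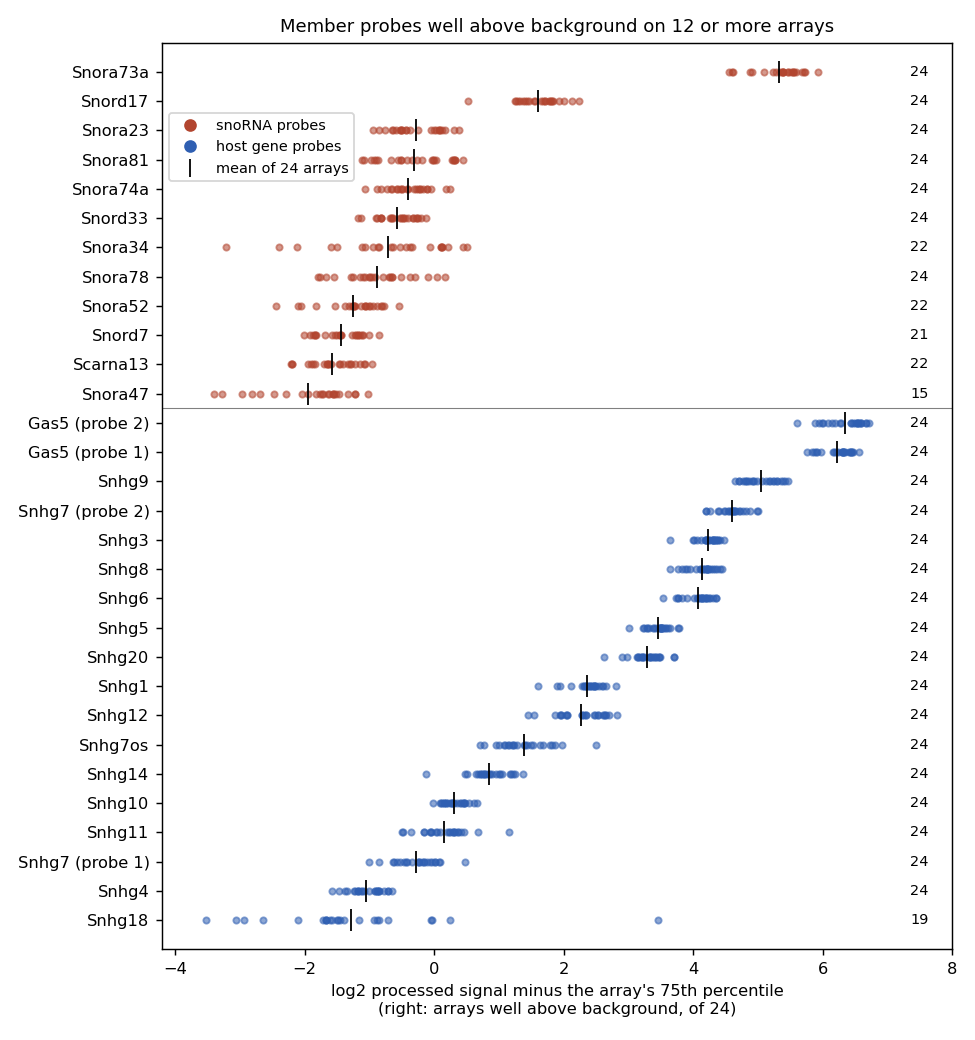
Levels of the 30 member probes that were well above background on at least 12 arrays. Each point is 1 of 24 arrays on a log2 axis, the black bar is the mean, snoRNA probes are red and host probes blue, and the number at the right counts arrays well above background. Rows are sorted by their mean within a kind, which depends on the probe and does not compare RNAs. Snora34 and Snora47 spread widely, and Snhg18 has 1 array at 3.46.

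The start sites of the hosts were read for the pyrimidine run known from ribosomal protein genes. RefSeq promoters (GRCm38.p6) were found for 13 of 15 host genes, leaving out Snhg7os. A C at the annotated start followed by at least 4 pyrimidines, on the transcribed strand, was found for 3 of them, Gas5, Snhg7 and Snhg8, against 2.50% of 32841 promoters. Each window below holds 25 bases before the annotated start and 25 from it on, and capitals mark the pyrimidines that run on from the start. They are shown because Gas5, Snhg8, Snhg12 and Snhg1 had an r between 0.59 and 0.70 with one another across the 24 arrays, while Snhg9 had an r between -0.76 and -0.46 with them. Among these 10 pairs, those of Snhg9 with Snhg8 and with Snhg1 did not pass the adjusted test given further on.
Gas5, chr1:161035141-161035190, plus strand: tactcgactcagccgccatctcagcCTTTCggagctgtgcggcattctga
Snhg8, chr3:123508312-123508361, minus strand: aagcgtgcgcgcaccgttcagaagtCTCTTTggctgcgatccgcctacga
Snhg12, chr4:132308653-132308702, plus strand: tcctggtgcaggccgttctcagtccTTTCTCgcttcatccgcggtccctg
Snhg1, chr19:8723462-8723511, plus strand: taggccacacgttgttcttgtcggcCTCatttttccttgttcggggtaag
Snhg9, chr17:24719941-24719990, minus strand: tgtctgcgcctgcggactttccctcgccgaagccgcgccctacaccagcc
Gas5 has another annotated start without the run. Snhg7 has the run but is not shown. Snhg3 and Snhg5 have no pyrimidine at the annotated start. Snhg3 had a higher r with Snhg1, and Snhg5 with Snhg12, than any pair of the hosts shown. Whether start sequence and r go together was not tested. The match depends on the exact annotated base, and start sites were not measured on these arrays.

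Whether a snoRNA and its host moved together was asked for 11 pairs. Each of the 13 snoRNAs lay inside a host gene in the reference table. Scarna6, in Atg16l1, was too dim, and the host of Snord7 had no probe. Over 24 arrays r was above 0 in 9 of the 11 pairs, against 55% of all pairs of probes, and the median r was 0.26. No pair (0 of 11) passed a permutation test adjusted over the 11 pairs, and 2 had an unadjusted p under 0.05. Over all pairs of the 23093 probes without a missing value the median r was 0.038, and the 5th and 95th percentiles were -0.45 and 0.52, so that each host pair lay within that range.

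The pair with the highest r was Snord33 and Rpl13a, a ribosomal protein gene of the large subunit. Its r was 0.46 (permutation p = 0.0218, adjusted 0.192, rho 0.45), and it was 0.49, 0.26 and 0.34 within slides 1, 2 and 3. Of all tested probes, 98.6% had a lower r with Snord33 than Rpl13a had. Snora23 and Ipo7, a nuclear import receptor, had an r of 0.43 (permutation p = 0.0349, adjusted 0.192, rho 0.42). Within slides their r was 0.69, 0.82 and -0.019, so slide 3 did not show the relation.

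Of the pairs with a non-coding host, Snora78 and Snhg9 had an r of 0.32 (permutation p = 0.128, adjusted 0.326), and 91.1% of tested probes had a lower r with Snora78. Within slides it was 0.22, 0.63 and 0.21, positive on each. Rps2, a ribosomal protein gene, lies over the same place on the other strand. Snora73a and Snhg3 had an r of 0.29 (permutation p = 0.166, adjusted 0.326), but r was -0.0021 without HC5 replicate 4 and -0.16 without the 2 arrays farthest from the median of Snhg3. Scarna13 and Snhg10 had an r of 0.25 (permutation p = 0.237, adjusted 0.326), and within slides it was 0.22, 0.76 and -0.32. Snora74a and Snhg4 had an r of 0.043 (permutation p = 0.844).

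Of the remaining hosts that encode proteins, Snord17 and Snx5, a sorting nexin, had an r of 0.31 (permutation p = 0.134, adjusted 0.326). Snora81 and Eif4a2, a helicase of translation initiation, had an r of 0.26, which was -0.061 without the 2 farthest arrays. Snora47 and Zbed3 had an r of 0.10. The lowest values belonged to Snora34 and Kansl2, a subunit of a histone acetyltransferase complex, at -0.19, and Snora52 and Rplp2, a protein of the ribosomal stalk, at -0.26. In 5 of the 11 pairs r was above 0 on each of the 3 slides.

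**Figure D2:**
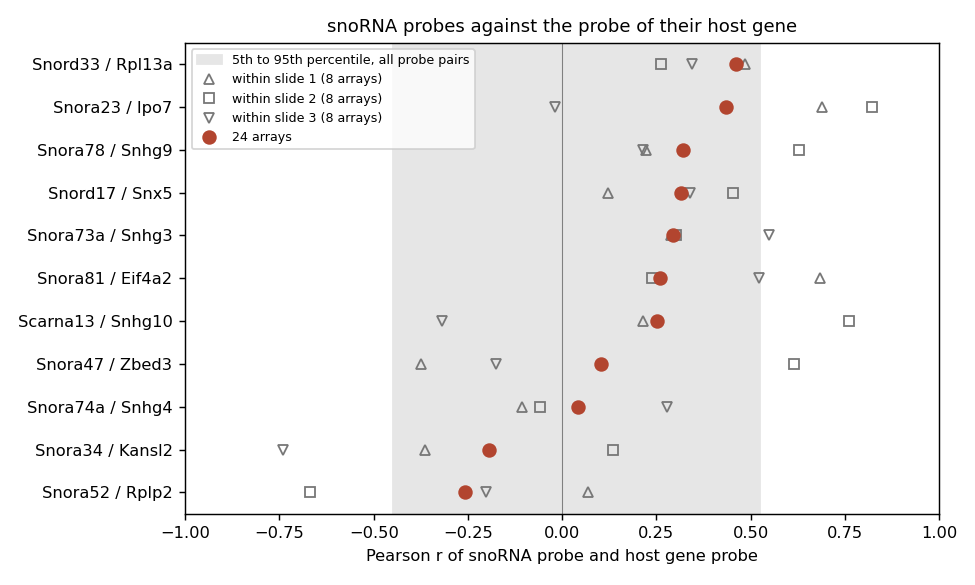
Pearson r of each snoRNA probe with the probe of its host gene. Red points use 24 arrays, open symbols the 8 arrays of 1 slide, and the grey band holds the 5th to 95th percentile of r over all pairs of probes. The red points run between -0.26 and 0.46 and lie inside the band.

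With condition means removed the median r of the 11 pairs was 0.36, and with slide means removed it was 0.30. With the 16 member host genes other than its own, a snoRNA probe had a median r of 0.070 over 188 pairs. Those 16 leave out the protein-coding hosts of the own-host pairs, so the 2 sets hold different kinds of host. Over the 4 own-host pairs within the 16 genes the median r was 0.27. The r of the 188 pairs ran between -0.55 and 0.65, which covers the whole range of the own-host pairs. The difference between the medians was not tested.

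The snoRNA probes were correlated with one another. Among all 378 pairs of the 12 snoRNA probes and 16 host genes, 50 passed a permutation test adjusted over the 378 pairs with a positive r and 14 with a negative one. The smallest size of r that passed, of either sign, was 0.53. Of all pairs of probes 4.88% reach 0.53 or above, and 2.64% reach its negative or below. Among snoRNA probes 14 of 66 pairs passed, all positive, 59 of 66 had a positive r, and the median r was 0.26. Between a snoRNA and a host other than its own, 5 of 188 passed with a positive and 1 with a negative r.

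The tightest snoRNA pairs came from different hosts on different chromosomes. Snora52 and Snora73a had an r of 0.79 (permutation p adjusted over 378 pairs = 0.000630, rho 0.60), and 0.38, 0.64 and 0.92 within slides 1, 2 and 3. Snora23 and Snora81 had an r of 0.78 (rho 0.74), and 0.80, 0.89 and 0.45 within slides. Snora34 and Snora81 had an r of 0.77 (rho 0.83), and 0.74, 0.87 and 0.83 within slides. Snora73a and Snora74a had an r of 0.75, and 0.61, 0.83 and 0.93 within slides. These relations held their sign on each slide. With condition means removed they were 0.70, 0.75, 0.76 and 0.48. Over all 66 pairs the median r was 0.17 with condition means removed and 0.30 with slide means removed.

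Among host genes the correlations ran both ways, with a median r of 0.12 over 120 pairs, a lowest of -0.87 and 75 positive. Gas5 and Snhg6 had an r of 0.92 (permutation p adjusted over 378 pairs = 0.000630, rho 0.91), and 0.95, 0.73 and 0.98 within slides. Snhg1 and Snhg3 had an r of 0.81, Snhg3 and Snhg14 of 0.78, Snhg6 and Snhg8 of 0.75, and Snhg5 and Snhg12 of 0.74. Gas5, Snhg1, Snhg3, Snhg6 and Snhg14 each had their lowest level in HC5 replicate 4, the dimmest array. The part of that array in these r was not tested. In all, 31 of 120 host pairs passed with a positive r and 13 with a negative one. Each of the 13 negative pairs held Snhg9 or Snhg7os. Snhg6 and Snhg7os had an r of -0.87, Gas5 and Snhg7os of -0.86, and Gas5 and Snhg9 of -0.75, while Snhg9 and Snhg7os had an r of 0.84. Without those 2 genes, chosen after their values were seen, 30 of 91 pairs passed with a positive r and 0 with a negative one.

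Array brightness moved with the hosts. The mean deviation of the 16 host genes from their 24-array means had an r of 0.58 with the log2 of the 75th percentile of the array (rho 0.47, and 0.54 without the 2 farthest arrays). Within slides 1, 2 and 3 it was 0.47, 0.022 and 0.88. HC5 replicate 4, the dimmest array, had the lowest host deviation, -0.31. It also held the highest level of Snhg7os, 2.50. The same r was 0.23 for the snoRNA probes. The part of brightness in the host correlations was not tested.

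**Figure D3:**
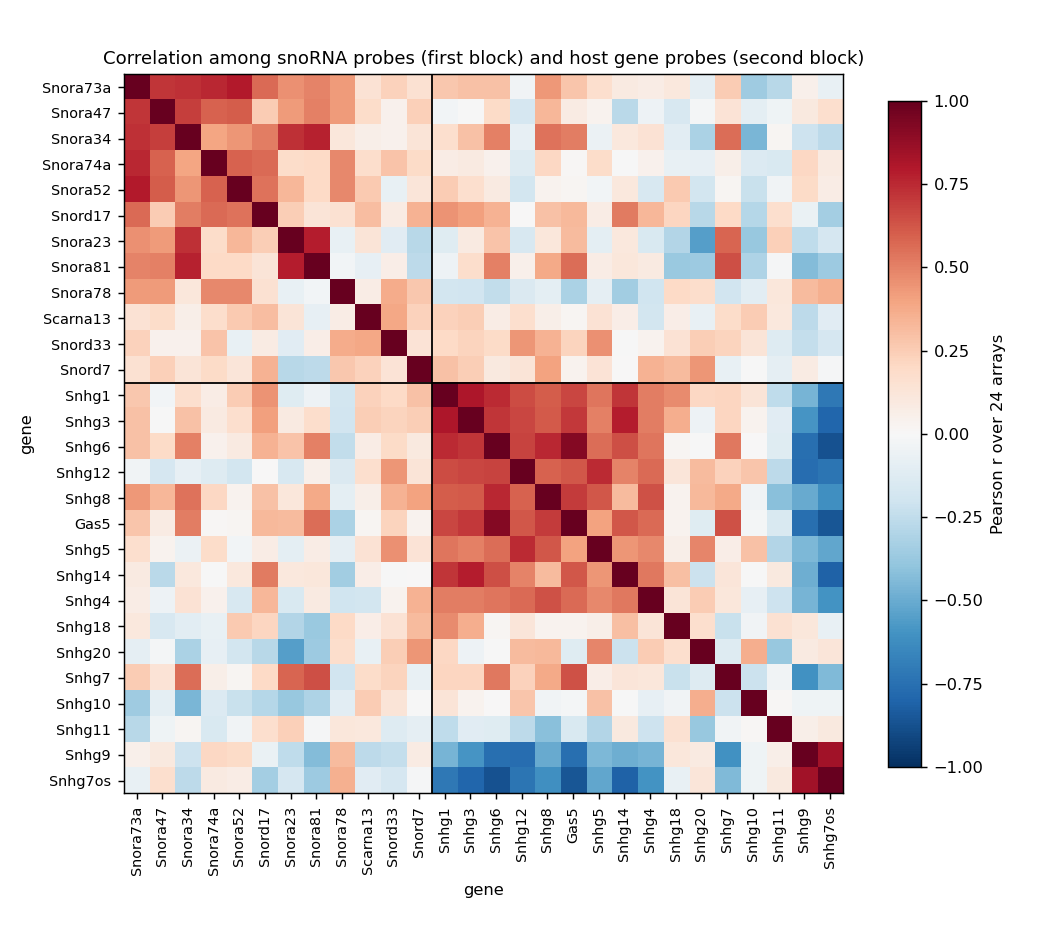
Pearson r over 24 arrays for each pair of 12 snoRNA probes, in the first block, and 16 host genes, in the second block, with red above 0 and blue below. Red marks 59 of 66 pairs in the snoRNA block and 75 of 120 in the host block, and Snhg9 and Snhg7os are blue against Gas5, Snhg6 and their neighbours.

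Other short nuclear and structural RNAs were set beside the snoRNAs. They are the 13 genes with names that start with Rnu, Rn7s or Rprl, or are Rmrp or Rpph1, a list made after the snoRNA values were seen. All but Rprl1, at 23 arrays, were well above background on all 24. Their 13 probes each had a positive r with the mean deviation of the snoRNA probes, between 0.20 for Rn7s1, the RNA of the signal recognition particle, and 0.79 for Rnu2-10, with a median of 0.70. With the mean deviation of the hosts their median r was 0.17. Rmrp, the RNA of a ribonuclease that acts on the ribosomal RNA precursor, had an r of 0.77 with the snoRNA deviation and 0.85 with Snora73a alone. Rnu3b1, itself the box C/D snoRNA that guides early cleavage of that precursor although its name is outside those of the members, had an r of 0.70. Rpph1, the RNA of ribonuclease P, had 0.76.

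Probe by probe, the median r of a snoRNA with one of the other short RNAs was 0.33 over 156 pairs, against 0.26 over the 11 own-host pairs, and the difference between these was not tested. Array by array, the mean deviation of the 12 snoRNA probes had an r of 0.86 with that of the 13 short RNAs (rho 0.78, and 0.78 without the 2 farthest arrays). Within slides it was 0.76, 0.84 and 0.97, and without the HC6 pools it was 0.89. With the 16 host genes it had an r of 0.12, which was -0.12 without the 2 farthest arrays and -0.039, -0.33 and 0.64 within slides. The host mean joins genes that ran opposite ways, and Snhg18 adds its 1 high value to HC2 replicate 3, the highest host mean of all arrays. Without Snhg9, Snhg7os and Snhg18, a choice made after seeing the data, r was 0.18, and 0.42, -0.070 and 0.37 within slides. Without the HC6 pools it was 0.51, and 0.31 with all 16 hosts. These are descriptions over arrays that share slide and brightness, and no p is given for such means. The 3 U1 probes (Rnu1a1, Rnu1b1 and Rnu1b6) read near-identical genes and may share signal.

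**Figure D4:**
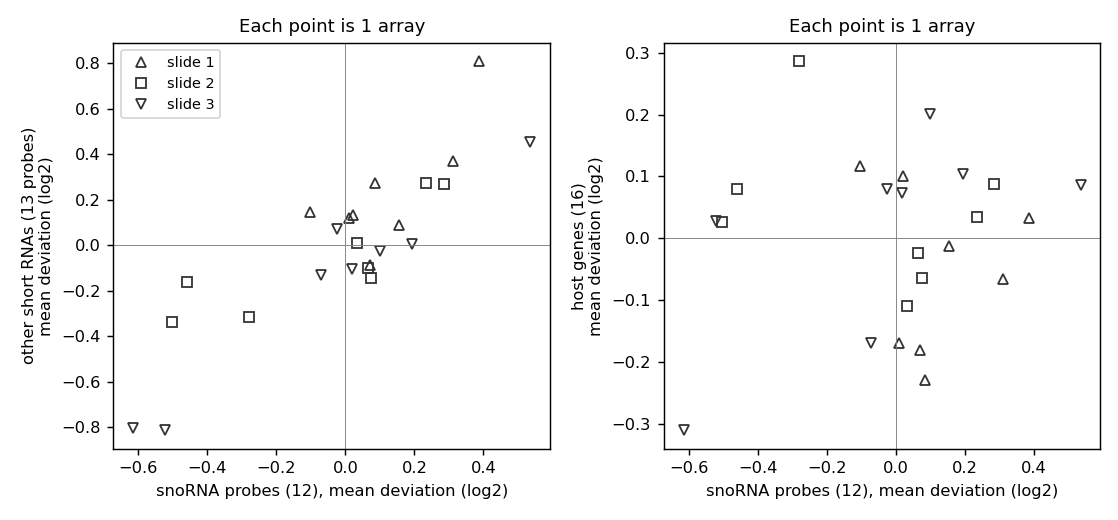
Mean deviation of the 12 snoRNA probes from their 24-array means, on the x axis in log2 units, against that of 13 other short RNAs at the left and of 16 host genes at the right. Each symbol is 1 array and its shape the slide. The r is 0.86 in the left panel and 0.12 in the right.

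Conditions were compared by an F-test over the 6 codes and by setting each code against the mean of the other 5, over 27144 probes, of which 32 were members. The F-test called 0 members, and 0% of all tested probes, at an adjusted p of 0.05 with limma. At an unadjusted p under 0.05 it found 3 members, Snora78, Snora74a and Snora73a, against 2.4% of all tested probes. No contrast of a code called a member either, and each called 0% of all probes. At an unadjusted p under 0.05 the HC1 contrast held 1 member (3.35% of all probes) and HC2 also 1 (2.44%). HC3 held 3 (1.77%), HC4 held 1 (2.06%), HC5 held 3 (6.01%) and HC6 held 5 (3.08%). Members named here are the 5 of smallest p in the F-test and the pair of smallest p in each contrast.

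Snora78 had the smallest p of the members in the F-test (adjusted p = 1.00). In HC2 its levels were -0.52, -0.092, -0.37 and 0.17, against a lowest of -1.79 and a highest of 0.050 in the other 20 pools. The difference was 0.81 (SE 0.18, 95% interval 0.43 to 1.18, adjusted p = 0.752). All 4 HC2 pools were above the mean of the others, and 18 of the other 20 pools lay below the lowest of them. Snora78 had the smallest p of the members in this same HC2 contrast, so the separation is not separate support. Within slides 1, 2 and 3 the difference was 0.69, 0.65 and 1.12. In HC3 its levels were -0.78, -0.65, -0.30 and 0.050, with a difference of 0.55 (SE 0.18, adjusted p = 1.00), which was 0.12, 0.53 and 0.98 within slides.

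In HC6 12 of 12 snoRNA probes had a mean below that of the other 5 conditions, against 52.8% of all tested probes, though Snord7 differed by less than 0.001. The probes were read on the same pools and were correlated with one another. Such counts of probes, here and below, are therefore not counts of independent observations. The median difference over the 12 was -0.53 on the log2 scale, against -0.0096 over all tested probes, and 0.086 over the 20 host probes, of which 7 were below. It was -0.18 with normexp and quantile normalization and -0.27 in the authors' deposited table, and 11 and 12 of the 12 were below the others there. Within slides the median was -0.25 on slide 1 (1 HC6 pool), -0.44 on slide 2 (2 pools) and -0.55 on slide 3 (1 pool). None of the 12 passed adjustment (smallest adjusted p = 0.999).

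Snora74a had levels of -0.73, -1.07, -0.88 and -0.82 in HC6, against a lowest of -0.67, a median of -0.29 and a highest of 0.24 in the other 20 pools. The 4 HC6 pools lay below every other pool. This held for 2 of 27144 tested probes (0.00737%), and 3 probes had all 4 HC5 pools below every other pool. Snora74a was named for its p in this same HC6 contrast, so the separation is not separate support. The difference was -0.57 (SE 0.13, 95% interval -0.83 to -0.30, adjusted p = 0.999). Its host Snhg4 averaged -0.97 ± 0.26 in HC6 and -1.06 ± 0.25 in the other 5 conditions (SD, n = 4 and 20), with a difference of 0.089.

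Snora78 had levels of -0.96, -1.77, -1.55 and -1.79 in HC6, against a lowest of -1.66, a median of -0.74 and a highest of 0.17 in the others. The groups overlapped through HC6 replicate 1, which 8 of the other pools lay below. The difference was -0.77 (SE 0.18, adjusted p = 0.999), and within slides it was -0.098, -0.89 and -1.23. HC2 and HC6 were each among the conditions that the other was set against, so the Snora78 differences in HC2 and HC6 are not separate results. Snhg9, its host, averaged 4.97 ± 0.35 in HC6 and 5.06 ± 0.24 in the others (SD, n = 4 and 20).

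Snora73a had levels of 5.27, 4.56, 4.87 and 4.62 in HC6, against a lowest of 4.61, a median of 5.47 and a highest of 5.92 in the others. The difference was -0.59 (SE 0.16, adjusted p = 0.999). HC6 replicate 1 was again the highest of the HC6 pools. Its host Snhg3 averaged 4.26 ± 0.14 in HC6 and 4.22 ± 0.18 in the others (SD, n = 4 and 20).

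Snora52 had levels of -1.24, -2.06, -1.06 and -2.44 in HC6, against a lowest of -2.10, a median of -1.10 and a highest of -0.54 in the others, with a difference of -0.54 (SE 0.21, adjusted p = 0.999). Snora47 was not well above background in any HC6 pool, nor on 5 of the other 20 arrays, so no fold is given. Its measured means were -2.74 in HC6 and -1.78 in the others (adjusted p = 0.999). Within slides the difference was 0.030, -1.23 and -1.47, so slide 1 did not show it, and it was -0.20 with normexp and quantile normalization and -0.33 in the authors' deposited table.

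The other short RNAs were also mostly lower in HC6. Of the 13, 11 were below the other 5 conditions, against 52.8% of all tested probes, with a median difference of -0.42. None passed adjustment (smallest adjusted p = 0.999), and 4 had an unadjusted p under 0.05, against 3.08% of all tested probes. The 11 include the 3 U1 probes. On slide 1 only 8 of 13 were below, with a median of -0.10. Rmrp averaged 2.14 in HC6, against 2.57 in the other 5 conditions. Their part in the snoRNA difference was not tested. In the mean deviation of the 12 snoRNA probes HC6 had -0.10, -0.50, -0.46 and -0.52 in replicates 1, 2, 3 and 4, and HC5 replicate 4 was lower still at -0.61.

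**Figure D5:**
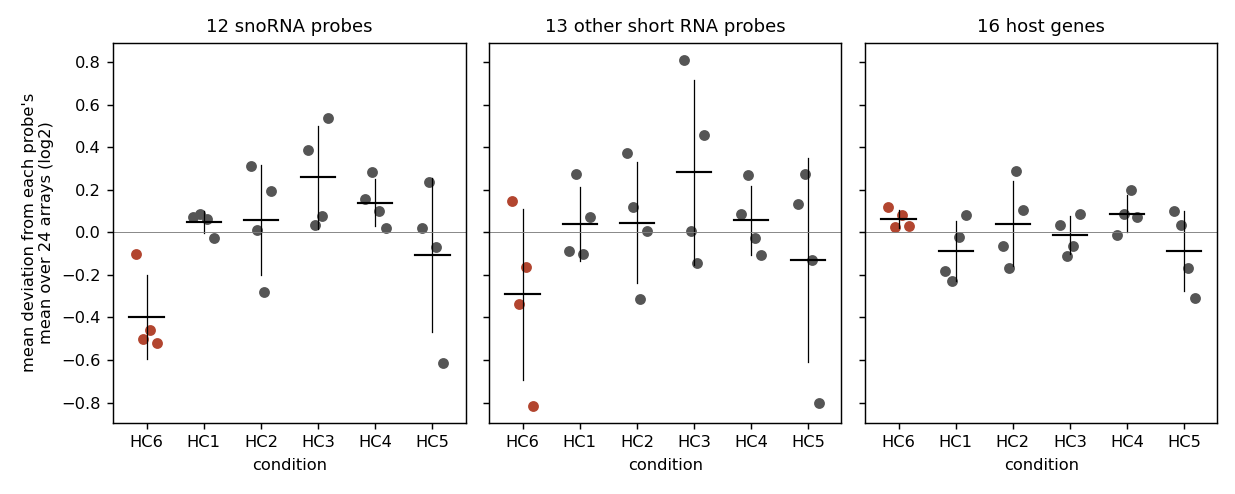
Mean deviation from each probe's 24-array mean, in log2 units, for snoRNA probes, other short RNAs and host genes. Points are pools, bars are condition means and thin lines are SDs (n = 4). For snoRNAs HC6, in red, has 3 of 4 pools between -0.52 and -0.46, and for host genes its 4 pools lie above 0. Without Snhg9, Snhg7os and Snhg18 the host value of HC6 replicate 1 was -0.043. The lowest snoRNA pool and the lowest host pool are both HC5 replicate 4.

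HC3 showed the opposite side. Of the 12 snoRNA probes 0 were below the other 5 conditions, against 49.1% of all tested probes, with a median difference of 0.26. The pools differed, with a mean deviation of the 12 probes of 0.39, 0.033, 0.075 and 0.54 in HC3 replicates 1, 2, 3 and 4. Replicates 2 and 3 were thus no higher than the highest HC1 pool, at 0.085. The other short RNAs were also mostly higher in HC3, with 1 of 13 below and a median difference of 0.35. HC6 is among the conditions that HC3 was set against, so the HC3 and HC6 counts are not separate results. Snord7 had levels of -1.09, -1.01, -1.18 and -1.18 in HC3, against a median of -1.48 in the others, with a difference of 0.39 (SE 0.16, adjusted p = 1.00). None of the 12 passed adjustment. Host probes were below in 11 of 20, with a median difference of -0.0087.

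In HC4 2 of the 12 snoRNA probes and 3 of the 20 host probes were below the other 5 conditions, against 35.2% of all tested probes. In HC5 8 snoRNA and 15 host probes were below, against 54.1% of all tested probes. In HC1 5 snoRNA and 16 host probes were below, against 51.8%, and in HC2 5 and 12, against 56.6%. None of these members passed adjustment.

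In HC1 Snora74a had a difference of 0.33 (SE 0.13, adjusted p = 1.00) with 4 of 4 pools above the mean of the others. Within slides 1, 2 and 3 it was 0.29, 0.77 and -0.0084, and it was 0.20 without HC1 replicate 3. Snhg11 had a difference of -0.36 in HC1 (SE 0.20, adjusted p = 1.00), with 0.086, -0.81 and -0.46 within slides. In HC4 Snhg5 had levels of 3.53, 3.65, 3.76 and 3.78, against a lowest of 3.01, a median of 3.49 and a highest of 3.60 in the others, with a difference of 0.26 (SE 0.093, adjusted p = 0.999). Scarna13 differed by 0.32 in HC4 (SE 0.19, adjusted p = 0.999). All 4 HC4 pools of each were above the mean of the others. The members of HC1 and HC4 were named for their p in these same contrasts, so such counts of pools are not separate support.

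In HC5 Snhg1 had levels of 2.49, 2.38, 1.94 and 1.60, against a lowest of 1.90, a median of 2.43 and a highest of 2.80 in the others. The difference was -0.32 (SE 0.13, adjusted p = 0.82), and within slides 1, 2 and 3 it was 0.10, -0.025 and -0.75, so it rests on HC5 replicates 3 and 4. Snhg14 had a difference of -0.36 (SE 0.16, adjusted p = 0.82) and 0.025, -0.0085 and -0.80 within slides. Its HC5 levels were 0.74, 0.89, 0.68 and -0.13, against a median of 0.85 in the others, so the difference rests mostly on HC5 replicate 4. With a pool left out it ran between -0.47 and -0.13. In HC2 Snhg18 had 3.46 in replicate 3 and between -1.71 and -1.49 in replicates 1, 2 and 4. Its difference of 1.14 (SE 0.72, adjusted p = 1.00) was -0.12 without replicate 3.

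Transcripts of the proteins that bind snoRNAs were measured well above background. All 4 of the box C/D core proteins on the array were well above background on all 24 arrays, among them Fbl, the methyltransferase fibrillarin, at a mean level of 7.54, and Nop56 and Nop58. So were all 4 box H/ACA core proteins, among them Dkc1, the pseudouridine synthase dyskerin, and Nhp2. None passed the F-test of the conditions (0 of 8, each with an adjusted p of 1.00), which called 0% of all tested probes. The counts of 0 in the lists of this paragraph therefore do not set their genes apart from other probes. Of the assembly and trafficking factors 14 of 14 on the array were tested and 0 passed, with Shq1 and Rpap3 of smallest p. Of the intron debranching and exosome genes 12 of 12 were tested and 0 passed. Exosc3, an exosome subunit, had the smallest p among them (adjusted p = 1.00), with means of 1.72 in HC6 and 1.42 in HC1. Nonsense-mediated decay factors, which act on several spliced host transcripts, gave 0 of 9, with Smg6 of smallest p. Of 12 RNA polymerase I genes 0 passed, with Polr1d of smallest p. In these lists no gene had an unadjusted F-test p under 0.05. No contrast of a code called a gene of these lists either (smallest adjusted p = 0.809).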

How the data were processed

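Total RNA of 24 blastocyst pools was measured on 1-colour arrays. The deposited scanner files hold intensity values, which Agilent Feature Extraction 10.10.1.1 had background-subtracted and detrended within each array, per the file headers. The authors' deposited table holds log2 values for 27101 probes on a common scale between arrays (column medians close to 7), with the normalization not given in the sources used here; the submitters' processing notes name limma. It served as an alternative.

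From the processed signal, control and outlier spots were left out, replicate spots averaged and values log2-transformed and reduced by the array's 75th percentile over probes. The 27144 probes that passed the well-above-background flag on 4 or more arrays were fitted together with limma 3.58.1 in R 4.3.3: an F-test over the 6 codes, and each code against the mean of the other 5, with Benjamini-Hochberg adjustment over all 27144 at 0.05. Correlations used 100000 permutations, adjusted over 11 snoRNA-host pairs or 378 member pairs. Pairs needed both probes well above background on at least 12 arrays. Host genes were taken from the reference gene table as the gene whose span holds the snoRNA. Probe sequences and mm9 coordinates came from the array files, and promoters from RefSeq (GRCm38.p6). Each slide held 8 arrays. The fit and the correlation script were tested on simulated data.

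Named members were host probes well above background on every array, snoRNA probes on at least 12, the 5 members of smallest F-test p, the pair of smallest p in each contrast, the extreme host pairs, and up to 4 genes of each list by F-test p. Members and lists were chosen with earlier results of these data known. Alternatives changed the background correction, normalization, percentile base, filter, unit, slide and replicate blocks, or left out each pool. Replicate numbers were not taken to pair the pools: deviations of same-numbered pools had a median r of 0.012, with a lowest of -0.27.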

Additional observations from a re-analysis of the deposited data

Results flagged for a closer look

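In each condition the highest and lowest pool of every member probe well above background on at least 12 arrays was set against Dixon's 95% limit for 4 values. Of 180 such groups 13 stood out, which is 7.22%, and chance flags about 1 in 20. Among snoRNAs, Snora47 had -2.97 in HC1 replicate 4, below -1.82 to -1.64 in the other HC1 pools. Snora74a had 0.18 in HC3 replicate 4, above -0.49 to -0.40 in the other HC3 pools. Snora78 had -0.69 in HC4 replicate 2, above -1.14 to -1.07. Snord7 had -0.84 in HC1 replicate 3, above the others, of which the highest was -1.84, and -1.11 in HC2 replicate 3, above -1.50 to -1.45.

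Among hosts, Snhg18 had 3.46 in HC2 replicate 3, above -1.71 to -1.49 in the other HC2 pools. Snhg5 had 3.29 in HC3 replicate 2, below 3.48 to 3.51, and 3.01 in HC5 replicate 3, below 3.49 to 3.52. Snhg20 had 3.21 in HC4 replicate 2, below 3.47 to 3.49. In HC6, 4 host values stood out in 3 pools. Snhg12 had 1.96 in replicate 1, below 2.53 to 2.64, and Snhg3 had 4.05 in replicate 1, below 4.32 to 4.35. Snhg8 had 3.87 in replicate 3, below 4.17 to 4.22, and Snhg6 had 4.31 in replicate 4, above 4.10 to 4.14.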

How the results depend on the processing

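No member was called in any condition comparison under any alternative run, and no snoRNA-host pair was called in those run on the pairs. Over all probes, the authors' deposited table called 1 in HC2 and dropping the filter on dim probes called 1 in HC5. Leaving out 1 pool gave 0 to 1 calls in the F-test, 0 to 1 in HC1, 0 to 4 in HC2 (4 without HC2 replicate 1), 0 to 2 in HC4 (2 without HC4 replicate 4) and 0 to 1 in HC5. The 24-array median r of snoRNA and host probes (0.26) ran between 0.14 and 0.31 with a pool left out and between 0.17 and 0.36 otherwise, and was 0.22 with the replicate block. The block changed no call. Of 24 pools 13 correlated best with a pool of their own number, a hint from the data that the labels do not explain. Replicate number and slide overlap, with every replicate 1 array on slide 1 and every replicate 4 array on slide 3. Number and slide can therefore not be fully told apart. The Snhg18 difference in HC2 ran between -0.12 (without HC2 replicate 3) and 1.60 with a pool left out.

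Several r changed sign, and the cause was not tested. Within slide 3 Scarna13 with Snhg10 had -0.32, Snora23 with Ipo7 -0.019 and Snora47 with Zbed3 -0.18. Within slide 1 Snora47 with Zbed3 had -0.37, Snora52 with Rplp2 0.068 and Snora74a with Snhg4 -0.11. Within slide 2 Snora34 with Kansl2 had 0.14 and Snora74a with Snhg4 -0.058. In the authors' table Snora47 with Zbed3 had -0.0090, Snora74a with Snhg4 -0.087 and Snora81 with Eif4a2 -0.050, which was -0.052 after quantile normalization. Snora47 with Zbed3 had -0.0048 with slide means removed and -0.097 with the replicate block. Snora74a with Snhg4 had -0.0050 with the percentile over detected probes. With a pool left out, Snora73a with Snhg3 ran between -0.0021 (without HC5 replicate 4) and 0.38, and Snora74a with Snhg4 between -0.015 (without HC1 replicate 3) and 0.23. The r of Snora74a with Snhg4 was also below 0 without HC2 replicate 4 (-0.011) and without HC5 replicate 4 (-0.0040). Dim signal limits Snora47, Snora34, Snora52, Scarna13 and Snord7, which were not well above background on every array.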
